A study of Mus musculus with 8 samples.

Results

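Beside its probes for annotated transcripts, the array used in this study carries 16181 probes whose only name is a genome interval followed by the letter F or R, such as chr6:31078802-31079644_R, on the mm9 build of the mouse genome. These intervals are the array's large intergenic noncoding RNA (lincRNA) content. They were found by the form of the name alone, without use of any measured value, and they make up 29.1% of the 55681 non-control probes. The probes fall into 3540 intervals on chromosomes 1 to 19 and X and into 4607 interval strands, an interval strand being 1 interval with 1 letter. Probes of both letters were designed to 1067 intervals and probes of a single letter to the other 2473. An interval strand holds 1 to 10 probes (median 3), and the intervals measure from 62 bp to 7128487 bp (median 7315.5 bp), so that some are the size of an exon and others span several megabases.

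LincRNAs are transcribed from DNA between protein-coding genes, are usually spliced and polyadenylated like mRNA, and do not code for a protein. Most are expressed at lower levels and in fewer tissues than mRNAs, and for most no function is known, although a few act in the nucleus on chromatin or on the transcription of neighbouring genes. Transcription can run from either strand of the same stretch of DNA, and an array can carry probes to both strands where the direction of a transcript was not settled.

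Total RNA of the whole retina was compared between 4 wildtype (Lpcat1 WT) and 4 knockout (Lpcat1 KO) samples from 2-week-old C57BL/6 mice. LPCAT1 is an acyltransferase that makes phosphatidylcholine with saturated acyl chains, and the study asked what its loss does to photoreceptor cells. The KO allele was made in earlier work and is not described in the sources used here, and the line was crossed from C57BL6/N to C57BL6/J to remove the rd8 allele of Crb1, with no mouse used being homozygous for it. Each sample was labelled with Cy3 and put on its own array of the same slide, and nothing in the labels says whether the numbered replicates are separate mice, so p-values measure the spread between these samples. The WT arrays lay in row 1 of the slide and the KO arrays in row 2, and with this layout an effect of the row cannot be told apart from that of the genotype. In both rows the column of the slide was the replicate number.

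A probe's level is log2 of its processed signal minus the 75th percentile of its own array, so that 0 is the signal of that percentile, and a difference is always KO minus WT on this log2 scale. Testing was limited to probes whose spot the extraction software marked as well above background on each of the 4 arrays of WT, of KO or of both. It was called when limma's Benjamini-Hochberg adjusted p, taken over all 33975 tested probes of the array, was under 0.05 and the fold change over 1.2. The probe for Lpcat1 itself read -0.42, -0.39, -0.43 and -0.38 in WT and -0.88, -0.92, -0.90 and -0.78 in KO. It was lower in every KO sample, with a difference of -0.46 (SE 0.04, adjusted p = 0.0036). KO kept 72.5% of the WT signal, and the position of the probe with respect to the deletion is not known here, so the lower level goes with the labels without measuring the deletion. Among marker genes, all 12 rod genes of the list were tested, as befits whole retina, and their summed linear level was 2439 to 2531 in WT and 2044 to 2216 in KO, with 11 of the 12 genes below 0 and 3 called lower. The summed level of 10 microglia genes was 13.5 to 14.8 in WT and 17.6 to 18.5 in KO, with 7 genes called higher. For 8 Mueller glia genes it was 330 to 349 in WT and 397 to 405 in KO (3 called higher), and for 8 cone genes 207 to 213 and 236 to 247 (2 called higher). Fewer cells of a type and less RNA per cell cannot be told apart in whole tissue, and the part of these shifts in the interval results was not tested.

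Most of the interval probes gave little signal in the retina. Of the 16181, 7338 (45.3%) were tested, against 61.0% of all probes on the array, and 6578 (40.7%) rose well above background nowhere among the 8 arrays. The median level of the tested interval probes was -2.70, while that of the other tested probes was -0.25, and 884 of them (12.05%) lay above the 75th percentile of their array against 47.0% of the others. The tested probes covered 3196 interval strands (69.4%) and 2570 intervals (72.6%). Detection varied little with the length of the interval. In the shortest tertile of intervals (62 to 1853 bp) 43.9% of the probes were tested, in the middle tertile 46.4% and in the longest (15347 bp and more) 45.1%. Among F probes 43.5% were tested and among R probes 47.2%.

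Detection was often a property of single probes and not of the whole interval strand. Of 3917 strands designed with 2 or more probes, every probe was tested on 896 and none on 1054, while on the remaining 1967 some probes were tested and some were not. Of the 1067 intervals with probes to both strands, 626 had tested probes on both, 171 on F alone, 181 on R alone and 89 on neither. The sources used here do not give the position of a probe inside its interval, nor whether F and R name the strand of the probe or of its target. Probe sequences were not analysed here. Moreover, 2101 of the 3540 intervals (59.4%) overlap another interval by at least 1 bp, so that 2 intervals of different names can share a transcript. No gene symbol is given to an interval in the following.

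The share of interval probes well above background was 48.2 to 52.0% on the WT arrays and 43.2 to 49.7% on the KO arrays (50.3 ± 1.76% and 46.1 ± 3.05%, SD, n = 4 each). The groups overlapped, and a two-sided exact permutation test gave p = 0.0857. The lowest level counted as well above background was -5.21 to -5.08 on the WT arrays and -5.11 to -4.71 on the KO arrays (exact permutation p = 0.0857), so the floor of detection lay higher on most KO arrays. Accordingly 6485 interval probes were tested through all 8 arrays, 816 through the WT arrays only and 37 through the KO arrays only. A probe that entered through 1 genotype had to be brighter there, and its direction is read with that in mind.

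The interval probes differed little between KO and WT, and more of the called ones were lower than higher, a split that depended on the scaling, the filter and WT1. Of the 7338 tested probes, 163 (2.22%) were called, 52 higher and 111 lower in KO. Over all 33975 tested probes of the array 2.92% were called, 1.39% higher and 1.54% lower. The share of called interval probes was thus somewhat below that of the whole array. Under these settings, the only ones so compared, the shortfall lay on the side of the higher calls. The median difference was 0.40 among the probes called higher and -0.38 among those called lower, and of the called probes measured on all 8 arrays 5 were over 2-fold higher and 2 over 2-fold lower. KO and WT values did not overlap in 750 interval probes (10.2%), against 17.5% of all tested probes, and in all of the 163 called ones. At an unadjusted p under 0.05 stood 1321 interval probes (18.0%), against 23.8% of all tested probes.

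The whole set lay slightly below 0, to a degree that changed with the processing. The median difference of the tested interval probes was -0.053, with the middle 50% of them between -0.156 and 0.043, and 4829 (65.8%) lay below 0. Over all tested probes the median was -0.037 and 62.0% lay below 0. The median of the interval probes was -0.031 with the percentile over probes detected on all 8 arrays, -0.0125 after normexp and -0.00376 without the filter on dim probes. Among the 6485 interval probes measured on all 8 arrays, 142 (2.19%) were called, 52 higher and 90 lower. Of all probes of the array measured on all 8 arrays, 2.94% were called. Every call of an interval probe that rested on 1 genotype's detection was a lower one (21 probes, all tested through WT). The dimmest tertile of probes held 8 higher and 38 lower calls, the middle tertile 12 and 29, and the brightest tertile 32 and 44. The 21 calls tested through WT alone lay in the dim tertile, and that filter favours a lower value in KO. With probes measured on all 8 arrays the dim tertile held 8 higher and 17 lower calls and the other tertiles the same calls as before. Called were then 3.11% in the bright and 1.57% in the dim tertile. The direction also moved with the scaling: of the called probes 31.9% were higher under the scaling used here (52 of 163), 39.9% with the values of the deposited table (57 of 143), 48.9% when the percentile was taken over probes detected on all 8 arrays (67 of 137) and 45.9% after normexp background correction (39 of 85). Without the filter on dim probes 15 were higher and 15 lower, and without WT1 32 were higher and 31 lower. The split over the whole array under these other settings is not given here. These shares therefore do not show how far the interval probes departed from the whole array under them. The count itself fell to 47 without WT2, 53 without WT3, 57 without KO2, 60 without KO4, 63 without WT1, 77 without KO3 and 81 without WT4, and rose to 216 without KO1.

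Since the probes of an interval strand carry the same name and may share a target, their mean was also tested as 1 value per strand, in a fit that kept all other tested probes as single rows. Of 3196 tested strands 77 (2.41%) were called, 23 higher and 54 lower, against 3.31% of all rows of that fit (1.6% higher and 1.71% lower). Among strands with 2 or more tested probes 44 of 1889 were called, 16 higher and 28 lower. The 163 called probes themselves lay on 132 strands of 129 intervals. On 58 of these strands the mean was called too, on 74 it was not, and 19 strands were called by their mean without any called probe. In no strand and no interval were there called probes of both directions. On 44 of the 77 called strands, 19 higher and 25 lower, every tested probe was measured on all 8 arrays. The call of 15 of these 44 (7 higher and 8 lower) remained whichever single array was left out.

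On 8 strands every one of 2 or more tested probes was called, 5 of them higher and 3 lower in KO. On these strands the change was measured several times over, and in none of them did the values of KO and WT overlap.

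The largest increase was on chromosome 5. The interval chr5:22890322-22939119 (48798 bp) carries 3 probes, all to strand R. Their mean level was -2.40, -2.25, -2.47 and -2.37 in WT and -0.95, -0.85, -0.80 and -0.68 in KO. The samples of the genotypes were far apart, every KO value lying well above every WT value. The difference was 1.55 (SE 0.07, adjusted p = 0.00016), a 2.94-fold increase, and the separate probes gave 1.54, 1.55 and 1.57. The interval chr5:22887983-22939658 (51676 bp) contains the first one and has 3 R probes of its own, with mean levels of -2.56, -2.64, -2.58 and -2.55 in WT and -1.36, -1.31, -1.22 and -1.18 in KO. Here, too, all KO samples were higher than all WT samples. The difference was 1.32 (SE 0.05, adjusted p = 8.7e-05), and its probes gave 0.76, 1.54 and 1.65. Because the intervals overlap, these 6 probes may share a target and are not counted as separate changes. Under normexp background correction the differences were 1.18 and 0.96, and both strands remained called.

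None of the other tested probes of the same neighbourhood was called. The interval chr5:22801058-22939737 covers both intervals and had 9 tested F probes and 2 tested R probes. Among the F probes, A_30_P01029375 read 0.40 higher (SE 0.11, adjusted p = 0.069) and A_30_P01028932 0.20 higher (SE 0.05, adjusted p = 0.056), and the other 7 lay between -0.10 and 0.09. The F mean differed by 0.05 (SE 0.07, adjusted p = 0.66) and the R mean by -0.17 (SE 0.14, adjusted p = 0.48). Closest to the shared end, chr5:22928221-22939127_R gave levels from 1.202 to 1.354 in WT and from 1.010 to 1.427 in KO, which overlapped (difference -0.02, SE 0.09). The strand chr5:22905597-22939154_R read 0.24 higher (SE 0.09, adjusted p = 0.16) and was not called. Of 24 tested probes in these 138680 bp, 6 were called and 13 lay above 0, and the 6 called ones are the tested probes of 2 named intervals.

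A longer neighbourhood on chromosome 6 held the most called probes. Tested intervals that lie within 50 kb of each other were joined for this purpose, a rule chosen after the data had been seen. From chr6:30983012 to 31293337 (310326 bp) there were 9 tested intervals with 24 tested probes, of which 10 in 5 intervals were called, all higher in KO, and 19 lay above 0. The strand with the largest difference was chr6:31115515-31168433_R (52919 bp), with levels of -1.38, -1.34, -1.32 and -1.63 in WT and -0.90, -0.74, -0.77 and -0.89 in KO. All KO samples exceeded all WT samples, by 0.59 on average (SE 0.08, adjusted p = 0.008), and the 3 probes gave 0.54 to 0.65.

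The short interval chr6:31078802-31079644 (843 bp) lies at lower coordinates and also has 3 R probes. Its levels were 0.80, 0.91, 0.85 and 0.70 in WT and 1.18, 1.58, 1.28 and 1.49 in KO, again without overlap, and the difference was 0.57 (SE 0.09, adjusted p = 0.016) with probes from 0.51 to 0.61. On the other letter, chr6:31170350-31287353_F rose by 0.29 (SE 0.03, adjusted p = 0.0064) from levels of -1.50, -1.52, -1.52 and -1.51 in WT to -1.24, -1.16, -1.24 and -1.24 in KO. The strand chr6:31233512-31241062_F, which lies inside it, rose by 0.27 (SE 0.04, adjusted p = 0.014). The call of the latter was lost in 4 of the 8 runs that left out an array, and that of the former under normexp (0.25), each difference staying above 0. The called increases thus stood on strand R in the left part of the neighbourhood and on strand F in the right part.

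Other strands there were not called. The single tested F probe of chr6:30983012-31009987 read -2.19, -2.37, -2.50 and -2.37 in WT and -2.53, -2.87, -2.69 and -2.65 in KO, a difference of -0.33 (SE 0.09, adjusted p = 0.059) in the opposite direction. Next to it chr6:31007184-31007725_R was higher by 0.35 (SE 0.09, adjusted p = 0.064), with 1 of its 3 probes called. The wide interval chr6:31017987-31174287, in which the most changed strands lie, had 1 tested R probe (difference 0.06) and 2 tested F probes, none called.

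On chromosome 17 the interval chr17:8718223-8949898 (231676 bp) had 3 F probes, with mean levels of -2.06, -1.90, -2.05 and -2.14 in WT and -1.51, -1.26, -1.37 and -1.24 in KO. The KO samples were all higher, by 0.69 (SE 0.07, adjusted p = 0.0045), and the probes gave 0.36, 0.85 and 0.86. Within it lies chr17:8719950-8783850, whose 5 F probes differed far more among themselves, from -0.09 to 0.82, with 2 of them called and a mean of 0.33 (SE 0.06, adjusted p = 0.025). That call was lost in 6 of the 8 runs that left out an array, and under normexp the mean was 0.14 and not called. Its single tested R probe read -2.94 to -2.72 in WT and -3.06 to -2.91 in KO, which overlapped (difference -0.14, adjusted p = 0.19). The change in this neighbourhood was therefore seen on strand F, and there not by every probe.

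Among the strands with 2 or more tested probes all called, the largest decrease was in a very short interval on chromosome 3. This was chr3:60292527-60292880 (354 bp), with 3 R probes. The mean levels were 0.58, 0.05, 0.08 and 0.54 in WT and -0.75, -0.75, -0.93 and -0.55 in KO. The WT samples fell into a higher and a lower pair, and every KO sample lay below both. The difference was -1.06 (SE 0.14, adjusted p = 0.009), a 2.08-fold decrease, and the probes gave -0.86, -1.13 and -1.17. Its call was kept with any array left out (adjusted p at most 0.032) and under normexp (-0.92).

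On chromosome 12, chr12:76769763-76770169 (407 bp) had 3 R probes with mean levels of -1.30, -1.23, -1.13 and -1.25 in WT and -1.62, -1.56, -1.55 and -1.54 in KO. The difference of -0.34 (SE 0.05, adjusted p = 0.0085) was small but clear of the spread between samples, and the probes gave -0.43, -0.32 and -0.27. Under normexp the difference was -0.26 and no longer called. Its neighbourhood of 33426 bp held 12 tested probes, these 3 included, of which 4 were called lower and 1 lay above 0. The only call outside this strand was that of A_30_P01031995 (-0.28).

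On chromosome 8, chr8:72663591-72671154 (7564 bp) had 2 F probes with mean levels of 1.34, 1.43, 1.37 and 1.41 in WT and 1.12, 0.94, 1.00 and 1.01 in KO. The difference was -0.37 (SE 0.05, adjusted p = 0.008), with probes at -0.42 and -0.31. Here the neighbours went the same way. None of the 22 tested probes in 9420 bp lay above 0, and the F mean of chr8:72663625-72673010 fell by 0.22 (SE 0.04, adjusted p = 0.022), its R mean by 0.21 (SE 0.04, adjusted p = 0.035) and chr8:72671462-72672533_F by 0.23 (SE 0.04, adjusted p = 0.02). These 3 passed the adjusted p but not the 1.2-fold limit and were not called. This was a stretch where probes of both letters were lower together.

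Over all chromosomes 637 neighbourhoods held 2 or more tested intervals, and 11 of them had called probes in more than 1 interval, in 10 of the 11 in 1 direction only. Joining overlapping intervals alone gave 10 such neighbourhoods, 9 of them in 1 direction, and a gap of 200 kb gave 13 and 12. Besides those described, 2 called probes each were higher on chromosome 1 (from 52507332 to 52514490) and on chromosome X (from 58343629 to 58429166). Called lower were 3 probes on chromosome 14 (from 65205076 to 65219432), 3 on chromosome 5 (from 149751979 to 149808240) and 2 on chromosome 15 (from 102026122 to 102033838), 1 of which was tested through WT alone. In this stretch of chromosome 15, 5 of the 10 tested probes lay above 0, with a median difference of 0.01. With calls from probes measured on all 8 arrays there were 10 such neighbourhoods, 9 of them in 1 direction. On chromosome 8 from 122712014 to 122844282, 1 probe was called higher and 1 lower, in different intervals.

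Among probes that stood alone in their call, the largest increase was that of A_30_P01028861, on chr5:67865049-67868521_F. Its levels were -4.24, -4.27, -4.77 and -4.38 in WT and -3.60, -3.46, -3.63 and -3.24 in KO, close to the floor of detection but without overlap. The difference was 0.93 (SE 0.13, adjusted p = 0.013). The strand had 2 tested probes, 1 of them well above background on all 8 arrays, and the uncalled probe differed by 0.68. The strand mean was called too (0.81, SE 0.12, adjusted p = 0.012). That call remained whichever array was left out and under normexp, where the difference was 0.37.

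Among the largest decreases were probes that the KO arrays all left without a signal well above background, where only a bound can be given. The bound sets the WT mean against the mean over the KO arrays of the lowest signal counted as well above background, or of the probe's own signal where that was higher. The probe on chr13:21860993-21862345_F read -4.08, -4.39, -4.72 and -4.39 in WT and its level in KO was at least 1.41-fold lower (adjusted p = 0.019). The bound was 1.38-fold for the R probe of chr3:62727150-62758225 (adjusted p = 0.046), 1.30-fold for a probe of chr4:8351625-8358785_F (adjusted p = 0.025), 1.14-fold for the F probe of chr8:94841965-94881130 (adjusted p = 0.032) and 1.12-fold for a probe of chr12:81217572-81233910_F (adjusted p = 0.032). Tested probes of the opposite strand were not called in any of these intervals that had them: the R means of chr4:8351625-8358785, chr8:94841965-94881130 and chr12:81217572-81233910 differed by -0.13, -0.10 and -0.16, and the F mean of chr3:62727150-62758225 by 0.07. Each of the 5 calls was lost when 1 or another array was left out, in 4 to 8 of the 8 runs. The called probe A_30_P01021158 on chr1:182808654-182815659_R was well above background on 3 of the 4 KO arrays, differed by -1.24 (-0.48 after normexp) and lost its call in 7 of the 8 runs. On chr14:65431652-65437902, tested with 10 R and 5 F probes, the called R probe A_30_P01029049 was well above background on 1 KO array, and the other R probes, all uncalled, ranged from -0.22 to 0.27. These 7 probes entered the test through WT alone, where the filter favours a lower value in KO, so that their calls and adjusted p are no evidence of a direction.

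A decrease outside these, well above background on all 8 arrays, was that of A_30_P01026605 on chr16:39984031-40081556_R, with levels of 1.89, 1.82, 2.51 and 2.26 in WT and 1.55, 1.15, 0.84 and 1.41 in KO. The difference was -0.88 (SE 0.20, adjusted p = 0.042), but the other 3 probes of that strand did not share it. The probe values ran from -0.88 to 0.14, the strand mean differed by -0.19 (SE 0.09, adjusted p = 0.22), and the probe's call was lost in 7 of the 8 runs that left out an array. On chr2:154235540-154248551_R 3 of 4 tested probes were called lower, with a strand mean of -1.47, -1.54, -1.53 and -1.63 in WT and -1.76, -2.09, -2.02 and -2.05 in KO. The difference was -0.44 (SE 0.08, adjusted p = 0.018), and the call was lost in 4 of the 8 runs that left out an array.

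How far the probes of an interval agree was then asked of all members. The 1889 strands with 2 or more tested probes gave 8753 pairs, and in 68.2% of them both differences had the same sign. In pairs of probes from different intervals this share was 55.0%. The differences of a same-strand pair correlated with r = 0.31 over pairs, each pair entered in both orders, as a description, since the pairs share arrays and probes. Agreement rose with brightness. Same-sign pairs made up 62.3% in the dimmest tertile of pairs (r = 0.16), 66.2% in the middle tertile (r = 0.27) and 76.1% in the brightest (r = 0.65), and the median gap between the differences of a pair was 0.16, 0.10 and 0.06. With probes measured on all 8 arrays the share was 68.9%.

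Probes to opposite strands of an interval agreed much less. Among 5989 such pairs in 626 intervals 59.2% had the same sign, with r = 0.08, and in the brightest tertile 61.1%, with r = 0.03. Among the 626 intervals the F and R means had the same sign in 386 (61.7%), both lower in 333 and both higher in 53, with r = 0.02 between them. The median gap between the F and R mean was 0.12. Of these intervals 54 (8.63%) had a called probe, against 5.02% of all tested intervals, most of which have fewer tested probes, and 3 had called probes on both strands. The F mean was called in 12 and the R mean in 12 of them (1.92% each), against 2.41% of all tested strands.

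In 1 interval both strand means were called. The F probe of chr2:167085700-167117795 read -0.97, -1.12, -0.91 and -1.12 in WT and -1.28, -1.34, -1.36 and -1.38 in KO, a difference of -0.31 (SE 0.06, adjusted p = 0.021). The R probe read 4.03, 4.09, 4.15 and 4.04 in WT and 3.80, 3.70, 3.65 and 3.66 in KO, a difference of -0.37 (SE 0.05, adjusted p = 0.008). Each strand had 1 tested probe, all KO values lay below all WT values on both, and the F call was lost in 4 of the 8 runs that left out an array while the R call was kept in all 8.

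Uncalled probes beside a called one mostly had its sign when they shared its strand. Of 57 uncalled probes that shared a strand with a probe called higher, 49 lay above 0, with a median of 0.21. Of 189 that shared a strand with a probe called lower, 159 lay below 0, with a median of -0.14. On the opposite strand 8 of 30 probes lay above 0 beside a probe called higher, and 118 of 161 below 0 beside a probe called lower, against 65.8% of all interval probes below 0. Wherever 2 probes of a strand were called, their direction was the same (29 of 29 companions of higher and 25 of 25 of lower probes), and likewise in the 7 cases on opposite strands, all lower.

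Agreement within a strand was still incomplete. In 981 of the 1889 strands (51.9%) all probes had the same sign, in 250 higher and in 731 lower, and with 3 or more probes this held for 549 of 1185. The range of differences within a strand had a median of 0.17 (middle 50% from 0.09 to 0.30) and reached 2.80. The interval with the most tested probes was chr7:99879368-99889978. All 10 F and all 10 R probes were tested, their differences ran from -0.26 to 0.01, 18 of the 20 lay below 0, and 2 passed the adjusted p (0.035 and 0.042) without reaching a 1.2-fold change.

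On the strands with the widest ranges, 1 or a few arrays set the range. On chr5:125190100-125209625_R the probe A_30_P01017478 read -2.80, -2.85, 8.18 and -3.12 in WT and -2.87, -2.98, -3.03 and -2.94 in KO. On chr10:126818382-126856582_R the probe A_30_P01025061 read -2.96, 4.25, -2.98 and -3.27 in WT and -3.35, -3.06, -3.12 and -3.58 in KO. In each case 1 WT array stood apart, the other 7 agreed, and the probe was not called (adjusted p = 0.52 and 0.47). On chr5:14923900-15062725_F it was the low KO arrays that set the range. There the probe A_30_P01019649 read -2.75, -3.35, -3.24 and -3.49 in WT and -7.03, -6.76, -3.39 and -7.05 in KO, where it was well above background on KO3 alone, so that the size of its difference is not measured. Its strand has no probe well above background on all 8 arrays, and neither of the 2 tested probes was called. The strand mean counts among the 77 called ones, but that call was lost in 7 of the 8 runs that left out an array.

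By chromosome, the share of called interval probes among those measured on all 8 arrays ran from 0.692% on chromosome 11 (2 of 289) to 4.43% on chromosome 6 (17 of 384). Over all chromosomes it was 2.19%, and over all probes of the array measured on all 8 arrays 2.94%. Chromosome 6 had 13 higher calls against 4 lower ones, and 10 of the 13 came from the neighbourhood described. Chromosome 5 had 9 higher calls, 6 of them from its own pair of overlapping intervals, and 6 lower ones. Chromosome 3 had 9 calls and chromosomes 7, 18, 15 and 19 had 6, 5, 4 and 3, all lower, and chromosome 8 had 13 lower and 1 higher. These counts were not compared between chromosomes by a test. The median difference of all tested interval probes was below 0 on every chromosome, from -0.076 on chromosome 7 to -0.031 on chromosome 16.

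Chromosome 13, on which Lpcat1 lies, had 8 of 374 tested interval probes called (2.14%), 2 higher and 6 lower, and a median difference of -0.052. The share called was 2.22% over all tested interval probes and 2.92% over all tested probes of the array. The 2 higher probes share chr13:28490070-28492645_R, with differences of 0.29 (SE 0.05, adjusted p = 0.017) and 0.39 (SE 0.08, adjusted p = 0.039). The lower probes lay in 6 different intervals. Beside that of chr13:21860993-21862345 they were 1 probe each of chr13:70745306-70837331_R (-0.41), chr13:108259901-108272775_F (-0.41), chr13:83867711-83878140_F (-0.36), chr13:74738675-74756950_R (-0.27) and chr13:76326228-76332632_F (-0.27). The probes of chr13:21860993-21862345 and chr13:74738675-74756950 were tested through WT alone, where the filter favours a lower value in KO, and without them 4 lower calls were left. Each of the 8 calls was lost in 2 or more of the 8 runs that left out an array.

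The brightest signals among the interval probes were not called different between genotypes. The probe A_30_P01031754 on chr19:5801802-5802597_R read 9.20, 9.06, 9.05 and 9.03 in WT and 9.12, 9.02, 9.03 and 8.98 in KO (difference -0.05, SE 0.05), and a second probe of that strand differed by 0.10 (SE 0.10). The 2 brightest probes of chr17:17481706-17482457_R differed by -0.12 and -0.13 (SE 0.04 and 0.04, adjusted p = 0.076 and 0.075), with every KO value below every WT value. The probe A_30_P01031448 on chr14:78924115-78938125_F differed by -0.10 (SE 0.08). No spot on any array was saturated.

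For comparison, long noncoding RNAs with gene names were followed on the same arrays. Of a list of 50 such genes 23 were on the array and 20 tested. By the brightest tested probe of each, 16 lay above 0 with a median of 0.05, 1 was called higher and none lower. The gene called was Neat1, which forms the scaffold of nuclear paraspeckles, with 0.29 (SE 0.06, adjusted p = 0.034). Malat1, an abundant nuclear RNA, differed by 0.0012 (SE 0.06), and Meg3, a maternally expressed imprinted transcript, by -0.09 (SE 0.04, adjusted p = 0.25).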

How the data were processed

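Total RNA of 4 Lpcat1 WT and 4 Lpcat1 KO whole retinas was hybridised in 1 colour to Agilent SurePrint G3 mouse arrays, and the authors read the scans with Agilent Feature Extraction 10.7.1.1. The scanner output they deposited gives an intensity per spot, with the background already subtracted. The table deposited by the authors holds log2 values after a 75th percentile shift, which differed from the values here by a constant of 0.123 to 0.148 per array (SD at most 3e-07), and served as an alternative. No column was left unused (0 columns). Samples were grouped by their labels.

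Each processed signal was put on a log2 scale and the 75th percentile of its array, taken over spots that are not controls, was subtracted. Outlier spots were left out (86 to 147 per array), and a probe's repeated spots averaged. Probes well above background on all 4 arrays of a genotype were fitted in limma 3.58.1 (lmFit, eBayes; R 4.3.3) with genotype as the only term, and p-values were adjusted by Benjamini-Hochberg across the whole table. The scripts were tested on simulated data. A second fit replaced the tested probes of each interval strand by their mean. Calls needed a change over 1.2-fold at an adjusted p under 0.05. Single values were compared by exact permutation, whose smallest p with 4 against 4 is 0.0286. The number of arrays limits the precision.

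Members and lists were chosen with earlier results of these data known. Probes named in the text were Lpcat1, the 8 largest increases and decreases among called interval probes without overlap, strands with 2 or more tested probes all called, 6 intervals tested on both strands with the largest call, the 5 brightest probes, the called probes of chromosome 13, the interval with most tested probes, the 3 strands of widest range and called genes of a list of long noncoding RNAs. The joined neighbourhoods, chr2:154235540-154248551_R, chr2:167085700-167117795 and Malat1 and Meg3 were chosen after their values were seen. Alternatives were other scalings, background corrections, filters, tests, limits, a replicate block and each array left out, with the tested probes kept. A further 13 interval probes without a strand letter, 9 of them tested and none called (smallest adjusted p 0.299, limma), were left out. Gene symbols came from a RefSeq table by accession.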

Additional observations from a re-analysis of the deposited data

Results flagged for a closer look

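In 4 samples, an array was marked when its gap to the nearest other array exceeded Dixon's 95% critical value as a share of the range of its genotype. Of 134 such groups of the named probes 11 were marked. Chance marks about 1 in 20, but 5 of the 11 lie on strands named for their wide range, so the share is not set against that rate. Far apart in level were A_30_P01017478 on chr5:125190100-125209625_R (share 0.972), where WT3 read 8.18, which was 11.0 above the next WT array, and A_30_P01025061 on chr10:126818382-126856582_R (0.959), where WT2 read 4.25, which was 7.20 above the next. On A_30_P01019649 of chr5:14923900-15062725_F (0.920) KO3 read -3.39, which was 3.37 above the next KO array. The other 8 marked arrays were the highest of their genotype by 0.09 to 0.50.

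For those the shares were 0.882 for A_30_P01018329 and 0.838 for A_30_P01022733, both in KO on chr5:125190100-125209625_R, and 0.894 for A_30_P01020926 in KO on chr3:60292527-60292880_R. In WT they were 0.908 for A_30_P01028727 on chr13:28490070-28492645_R, 0.849 for A_30_P01029853 on chr6:31078802-31079644_R, 0.830 for A_30_P01031754 on chr19:5801802-5802597_R, 0.830 for A_30_P01033075 on chr4:8351625-8358785_F and 0.871 for A_30_P01033111 on chr17:8718223-8949898_F.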

How the results depend on the processing

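Against 163 probes and 77 strands called under the settings of the report, a median shift gave 106 and 49, normexp on the median signals 85 and 27, no filter on dim probes 30 and 25, the methods' t-test after Benjamini-Hochberg adjustment 95 and 41, a fold change over 1.5 gave 30 and 15, and an adjusted p under 0.5 gave 933 and 351. Under that fold limit Lpcat1 (-0.46) was no longer called. Strands with 2 or more tested probes alone gave 44. Leaving out 1 array gave 47 to 216 probes and 32 to 97 strands, a same-sign share of 64.7 to 70.2%, a median difference of -0.076 to -0.033 and a Lpcat1 difference of -0.50 to -0.45. Normexp moved the median difference to -0.0125 and the same-sign share to 63.4%, and no filter moved them to -0.00376 and 56.9%. Quantile normalization, the percentile over detected probes, the stricter filter, kept outlier spots, limma with trend and robust and the authors' values kept the probe count between 137 and 193. Among named items the sign turned in 3 cases, none called there: A_30_P01031448 (0.0077) and A_30_P01031754 (0.034) with quantile normalization, and chr15:102026122-102033597_F (0.23) with no filter, where the strand mean takes in untested probes. The causes were not tested.

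With the replicate number as a block 56 probes and 51 strands were called, and 43 of these probes were also called without it. Same-numbered arrays correlated by 0.249, 0.0687, 0.037 and 0.112 for numbers 1 to 4. Each KO array correlated most with the WT array of its number, while WT3 correlated more with KO4 (0.0451) than with KO3. The number is also the column of the slide, so a pairing of samples and the position on the slide cannot be told apart. The labels state no pairing, and the fit of the report used no block, so its calls leave the number out of account. Signal over background limited the dim probes, and all arrays shared 1 slide and scan, so neither could be used as a block.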
